A study of Mus musculus with 6 samples.

Results

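The TNF superfamily ligands described here are 10 genes: Tnf, Tnfsf4, Tnfsf8, Tnfsf9, Tnfsf10, Tnfsf11, Tnfsf13b, Tnfsf14, Tnfsf15 and Tnfsf18. They were chosen by name, as ligand genes of the family, out of 19938 genes measured, and all 10 were measured, each by 1 probe set. The list was drawn up with results of the comparison below already known. The values of the members in that comparison are therefore a description, and no test is read from them. RNA came from F4/80+ cells, cells carrying a surface protein of mouse macrophages, taken from tumours implanted in wild type mice or in St2-/- mice, which lack the IL-33 receptor ST2. Each group held 3 samples on 1 Affymetrix Gene 1.0 ST array each. The genotype is that of the host, and the labels give no tumour line, strain, age or sex. Nothing in them shows that samples of 1 genotype were taken from separate animals, and all errors and p-values cover only the spread among these arrays, which may be technical.

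Ligands of the TNF superfamily are mostly membrane proteins that assemble as trimers and engage trimeric receptors of the TNF receptor superfamily on neighbouring cells. Some are released by proteases as soluble cytokines. Their receptors recruit TRAF adaptors and activate NF-kB and MAP kinases, and a subset with a death domain can trigger apoptosis or necroptosis. In tumours, macrophages are a known source of TNF itself, and several other ligands act as co-stimulatory or survival signals for T, NK and B cells.

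Levels are deposited log2 RMA values, and each difference is the St2-/- mean minus the wild type mean. Array medians over the tested genes lay between 5.81 and 5.93, and Pearson's r across genes was 0.996 to 0.998 for arrays of like genotype and 0.986 to 0.988 otherwise. The number of arrays limits the precision, and a gene was called where limma's adjusted p was under 0.05. By that rule 4140 genes were called, 2142 higher and 1998 lower, and higher calls were 51.7% of all calls. Centring each array on its median raised that share to 74.0%. Adgre1, the gene of F4/80, had means of 11.32 ± 0.04 (wild type) and 11.63 ± 0.04 (St2-/-; SD, n = 3), and the macrophage genes Csf1r, Cd68 and C1qa had means above 12 in both groups. The gene of ST2 was not analysed here, so genotypes were not checked against it.

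In St2-/- samples 7 of the 10 ligand genes were higher (Tnfsf13b, Tnfsf10, Tnfsf15, Tnfsf8, Tnfsf9, Tnfsf14 and Tnfsf4), Tnf was lower, and Tnfsf11 and Tnfsf18 were not called. Over all genes 20.8% were called, 10.7% higher and 10.0% lower. The groups did not overlap for 8 of the 10, again 7 higher and 1 lower, and over all genes for 36.4%, 18.1% higher and 18.3% lower. The median difference of the members was 0.44, against -0.02 over all genes. Since the members were listed with this comparison known, nothing is read from the counts or from this median. In bulk RNA, fewer cells of a type and less RNA per cell cannot be told apart.

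**Figure D1:**
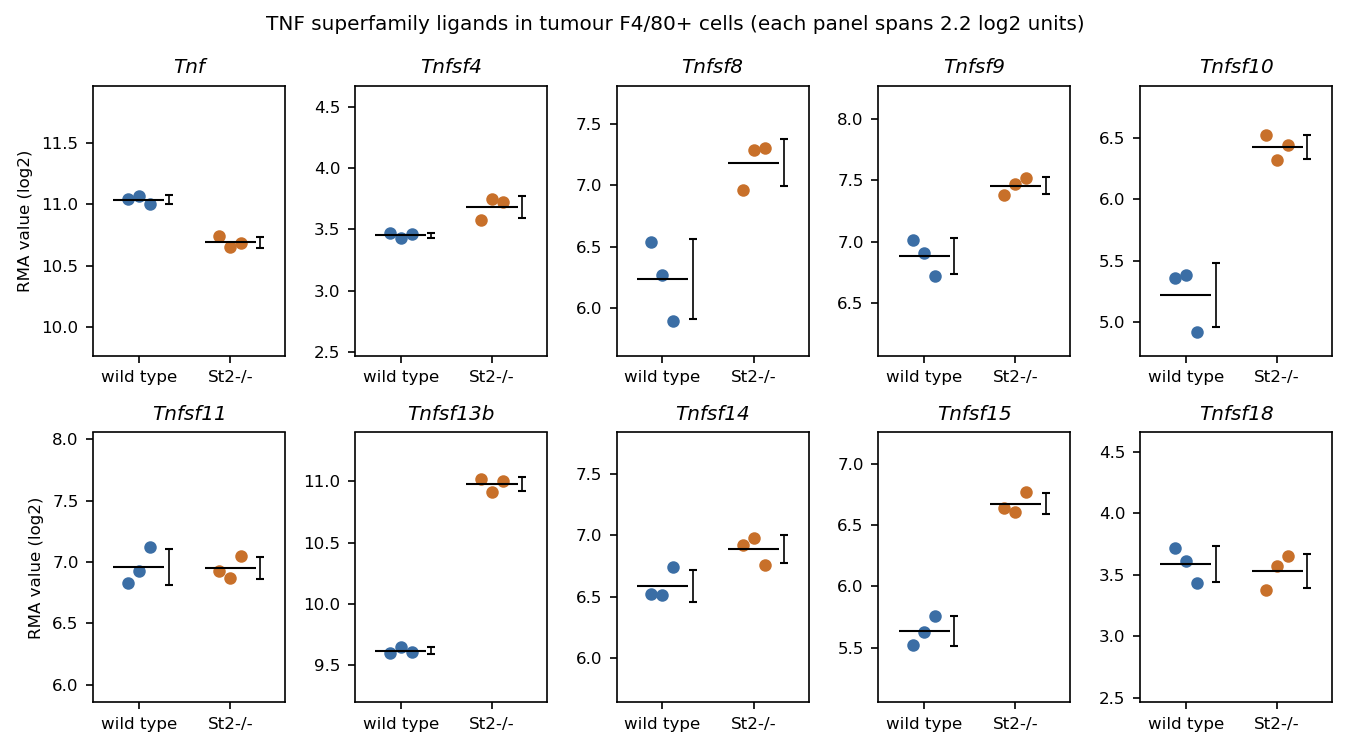
RMA values (log2) of the 10 ligand genes in 3 wild type and 3 St2-/- arrays; points are arrays, horizontal lines are group means, bars are 1 SD, and every panel spans 2.2 log2 units. Tnfsf13b shows the widest gap between the groups, 1.26, Tnf lies lower in all 3 St2-/- arrays, and the groups overlap for Tnfsf11 and Tnfsf18.

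Tnfsf13b encodes BAFF, a survival factor for B cells that myeloid cells make. Its probe set 10570018 read 9.60, 9.65 and 9.61 in the wild type arrays (replicates 1, 2 and 3, an order kept below), and 11.02, 10.91 and 11.00 in those of St2-/-. All 3 St2-/- arrays were high, and the lowest of them stood 1.26 above the highest wild type array. The group means were 9.62 ± 0.03 and 10.98 ± 0.06 (SD, n = 3), a difference of 1.36 ± 0.06 (SE), or 2.56-fold.

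Tnfsf10 encodes TRAIL, a ligand of death receptors and a known interferon-inducible gene. Wild type arrays read 5.36, 5.38 and 4.92, and St2-/- arrays 6.52, 6.32 and 6.44 (probe set 10491091). Wild type replicate 3 was the low array of its group, and the groups stood 0.94 apart. Means of 5.22 ± 0.26 and 6.43 ± 0.10 (SD, n = 3) gave a difference of 1.21 ± 0.12 (SE), or 2.31-fold.

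Tnfsf15 and Tnfsf8 lie next to each other on chromosome 4 with no other protein-coding gene between them in RefSeq, and both were higher. Tnfsf15 encodes TL1A, a T cell co-stimulator that myeloid and endothelial cells make. It read 5.52, 5.63 and 5.76 in wild type and 6.64, 6.61 and 6.77 in St2-/- (probe set 10513722), with a gap of 0.85 between the groups. The means were 5.64 ± 0.12 and 6.67 ± 0.09 (SD, n = 3), and the difference was 1.04 ± 0.08 (SE), or 2.05-fold. Tnfsf8 encodes the CD30 ligand, found on activated lymphocytes and myeloid cells. Its wild type arrays read 6.54, 6.27 and 5.89, the widest range of any member in that group (0.65), and its St2-/- arrays 6.96, 7.29 and 7.30 (probe set 10513729). The arrays nearest to one another were wild type replicate 1 and St2-/- replicate 1, 0.42 apart. Means of 6.23 ± 0.33 and 7.18 ± 0.19 (SD, n = 3) differed by 0.95 ± 0.15 (SE), or 1.93-fold. Tnfsf8 was not called by a plain two-sample test.

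The stretches of 250 bases before the RefSeq start sites (GRCm38.p6) are shown for the members with the 4 greatest rises and for Tnf, the member that fell. A window was found for 8 of the 10 members. Sequences run 5′ to 3′ on the strand of the gene, and capitals mark matches to the motifs searched on both strands. The motifs were the kappaB consensus bound by NF-kB, GAAANNGAA (core of the interferon-stimulated response element), TTCNNNGAA (STAT site) and TGANTCA (AP-1 site). Tnfsf13b has 2 windows in the table, of which the downstream one is shown.
Tnfsf13b, chr8:10006383-10006632, plus strand: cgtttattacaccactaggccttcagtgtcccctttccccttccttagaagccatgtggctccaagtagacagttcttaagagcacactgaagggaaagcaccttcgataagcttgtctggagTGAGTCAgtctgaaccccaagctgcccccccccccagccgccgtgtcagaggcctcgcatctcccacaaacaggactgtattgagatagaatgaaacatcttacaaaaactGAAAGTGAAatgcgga
Tnfsf8, chr4:63861285-63861534, minus strand: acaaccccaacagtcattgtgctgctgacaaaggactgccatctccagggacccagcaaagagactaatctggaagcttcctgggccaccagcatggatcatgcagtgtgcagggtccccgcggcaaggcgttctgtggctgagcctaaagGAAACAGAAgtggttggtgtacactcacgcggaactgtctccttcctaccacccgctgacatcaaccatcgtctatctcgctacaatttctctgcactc
Tnfsf10, chr3:27316827-27317076, plus strand: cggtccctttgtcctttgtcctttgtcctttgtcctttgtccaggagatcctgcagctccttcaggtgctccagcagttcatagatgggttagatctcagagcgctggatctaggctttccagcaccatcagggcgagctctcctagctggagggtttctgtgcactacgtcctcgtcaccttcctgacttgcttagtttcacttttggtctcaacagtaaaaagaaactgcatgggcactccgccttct
Tnfsf15, chr4:63745060-63745309, minus strand: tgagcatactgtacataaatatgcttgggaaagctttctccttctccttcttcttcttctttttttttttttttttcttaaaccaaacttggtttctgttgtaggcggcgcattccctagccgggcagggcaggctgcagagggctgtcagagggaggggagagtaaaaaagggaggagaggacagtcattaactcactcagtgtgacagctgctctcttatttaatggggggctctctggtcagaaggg
Tnf, chr17:35202008-35202257, minus strand: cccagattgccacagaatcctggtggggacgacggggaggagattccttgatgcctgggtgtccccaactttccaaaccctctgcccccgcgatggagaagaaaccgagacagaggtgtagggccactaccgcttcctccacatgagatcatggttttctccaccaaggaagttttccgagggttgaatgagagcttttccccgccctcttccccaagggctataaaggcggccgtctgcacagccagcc

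Over all 32851 promoter windows of the table, the 250 upstream bases held the kappaB consensus in 7.3%, GAAANNGAA in 7.1%, TTCNNNGAA in 7.0% and TGANTCA in 6.7%. Tnfsf13b held GAAAGTGAA, 16 to 8 bases before the start site, and TGAGTCA, and Tnfsf8 held GAAACAGAA, 99 to 91 bases before its start site. The only other match was TGAGTCA in Tnfsf14, among the windows searched. The windows of Tnf, Tnfsf10, Tnfsf11, Tnfsf15 and Tnfsf18, and the upstream window of Tnfsf13b, held none of these letters. A match describes letters only.

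Tnfsf9 encodes the 4-1BB ligand, a co-stimulator of T cells on antigen-presenting cells. It read 7.01, 6.91 and 6.72 in wild type and 7.38, 7.47 and 7.52 in St2-/- (probe set 10446229). Every St2-/- array was above every wild type array, by 0.37 or more. The means, 6.88 ± 0.15 and 7.46 ± 0.07 (SD, n = 3), differed by 0.58 ± 0.08 (SE), or 1.49-fold.

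Tnfsf14 and Tnfsf4 showed the smallest rises. Tnfsf14 encodes LIGHT, a ligand of HVEM and of the lymphotoxin beta receptor. It read 6.52, 6.51 and 6.74 in wild type and 6.92, 6.98 and 6.76 in St2-/- (probe set 10452307), so that wild type replicate 3 and St2-/- replicate 3 lay only 0.02 apart. Its difference was 0.30 ± 0.09 (SE, n = 3 a group), or 1.23-fold. Tnfsf4 encodes the OX40 ligand, a co-stimulator of T cells. Its arrays read 3.47, 3.43 and 3.46 in wild type and 3.58, 3.75 and 3.72 in St2-/- (probe set 10351095), a gap of 0.11. Its difference was 0.23 ± 0.07 (SE, n = 3 a group), or 1.17-fold, and its level was among the dimmest 40% of genes, at percentile 9.7. The call of Tnfsf14 was lost without wild type replicate 1 (difference 0.26) or 2 (0.26) or St2-/- replicate 1 (0.28) or 2 (0.25), and in the plain two-sample test. The call of Tnfsf4 was lost without any one array (0.20 to 0.24) except St2-/- replicate 1 (0.28), with an intensity trend in the variance prior and in the plain test.

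Tnf, the cytokine that gives the family its name, went the other way. It read 11.04, 11.07 and 11.00 in wild type and 10.74, 10.65 and 10.68 in St2-/- (probe set 10450501). All 3 St2-/- arrays were low, and the groups stood 0.26 apart. The means were 11.04 ± 0.04 and 10.69 ± 0.05 (SD, n = 3), a difference of -0.35 ± 0.06 (SE), or 1.27-fold lower. It was called lower under every alternative, with differences from -0.44 after cyclic loess to -0.26 with arrays centred on their median. In RefSeq Tnf lies between Ltb and Lta, both lymphotoxin genes, with no other protein-coding gene between them. Ltb differed by 0.01 ± 0.07 (SE) and was not called, and Lta is described with the other ligands.

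Tnfsf11 and Tnfsf18 overlapped between the groups. Tnfsf11 encodes RANKL, the osteoclast differentiation factor, and read 6.83, 6.93 and 7.12 in wild type and 6.93, 6.87 and 7.05 in St2-/- (probe set 10421737), a difference of -0.01 ± 0.09 (SE). Tnfsf18 encodes the GITR ligand, and read 3.72, 3.61 and 3.43 in wild type and 3.38, 3.57 and 3.65 in St2-/- (probe set 10351099), a difference of -0.05 ± 0.10 (SE). Tnfsf18 was among the dimmest 40% of genes, at percentile 9.6. In both, the spread within each group was wider than the difference between the means.

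Ordered by difference, Tnfsf13b, Tnfsf10, Tnfsf15 and Tnfsf8 followed one another with intervals of 1 SE that overlapped from each gene to the next. Tnfsf8 stood apart from Tnfsf9 (a step of 0.37), and Tnfsf9 from Tnfsf14 (0.28). Tnfsf14 and Tnfsf4 overlapped, Tnfsf4 stood apart from Tnfsf11 (0.24), Tnfsf11 overlapped Tnfsf18, and Tnfsf18 stood apart from Tnf (0.29). Standing apart means here only that intervals of 1 SE did not overlap, and differences between members were not tested. No array was the lowest or the highest of its group for all 10 members. Wild type replicate 3 was the lowest wild type array for 5 members and the highest for 3, and St2-/- replicate 2 was the lowest of its group for 5 and the highest for 2.

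**Figure D2:**
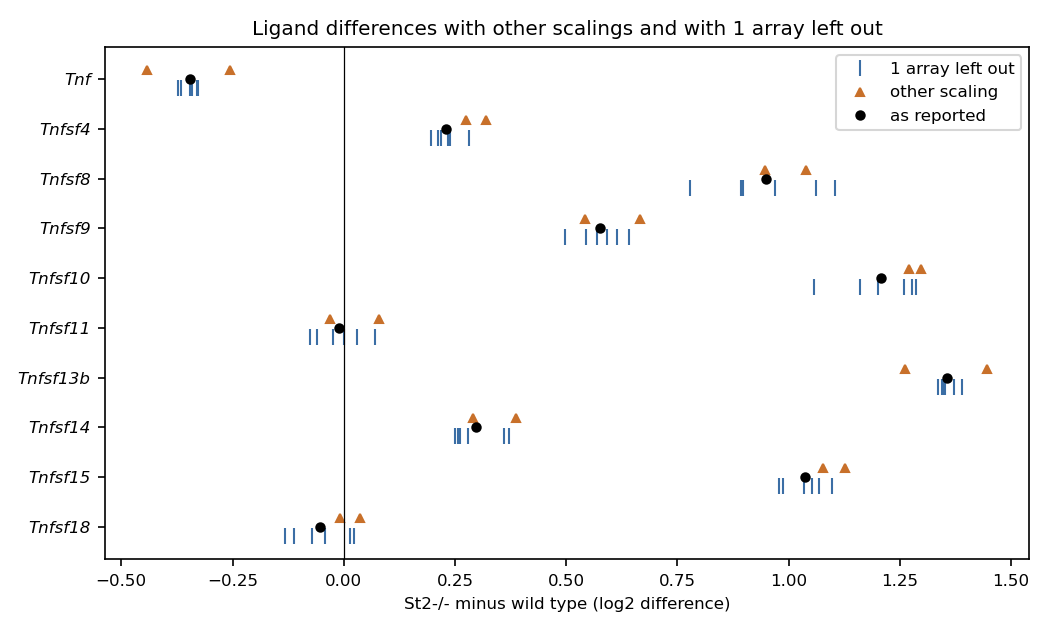
Differences (St2-/- minus wild type, log2) of the 10 ligand genes as reported (black), after each array was centred on its median or after cyclic loess (triangles), and with each of the 6 arrays left out (ticks). The 7 higher genes stayed above 0 and Tnf below 0 in all of these, and Tnfsf11 and Tnfsf18 scattered on both sides of 0.

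The genes most like Tnfsf13b and Tnf over the 6 arrays were found by Pearson's r, which here mostly reflects the difference between the groups. Closest to Tnfsf13b were the interferon-induced gene Ifit2, the kinase gene Ptk2b and the hexokinase gene Hk2, with r of 0.9997, 0.9997 and 0.9996 over 6 arrays and differences of 0.92, 0.69 and 0.68. Closest to Tnf were the kinase gene Camk1g, the TAM receptor ligand gene Gas6 and the endocytic adaptor gene Eps15, with r of 0.9997, 0.9991 and 0.9990 and differences of -0.99, -1.14 and -0.39. A Pearson r of at least 0.95 was found with 1222 genes for Tnfsf13b and with 859 for Tnf, so these genes stand out by rank alone.

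Of 8 other ligands of the family listed, 6 were measured by a probe set of their own. Of these 1, Lta, was higher and 5 were not called in limma, with a median difference of 0.02. The called share of 16.7% was near the 20.8% of all genes. Tnfsf12 and Tnfsf13 had none of their own. A probe set that the platform table pairs with several genes, these 2 among them, differed by -0.33 ± 0.07 (SE; limma adjusted p = 0.0251 over all probe sets), with groups that did not overlap, and its signal cannot be assigned to 1 gene. Lta, a lymphotoxin of lymphocytes, read 4.21, 4.22 and 4.50 in wild type and 4.58, 4.72 and 4.54 in St2-/-. Its difference of 0.30 ± 0.09 (SE) had a limma adjusted p of 0.0444. That call was lost without any one array except wild type replicate 3 (limma adjusted p from 0.068 to 0.145). Cd70 lies between Tnfsf9 and Tnfsf14 on chromosome 17, and differed by -0.01 ± 0.06 (SE), while both its neighbours were higher. Fasl, the death ligand of cytotoxic lymphocytes, follows Tnfsf18 on chromosome 1 and differed by 0.07 ± 0.06 (SE). Cd40lg (0.02) and Eda (0.01) were not called either. Cd70, Fasl, Cd40lg, Eda and Lta were all among the dimmest 40% of genes, and whether they stood above background was not tested.

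Called genes of the TNF receptor superfamily were mostly lower. Of 28 measured, 10 were lower, 1 was higher and 17 were not called in limma, a called share of 39.3% against 20.8% of all genes, with a median difference of -0.10. Arrays centred on their median gave 8 lower and 4 higher, and cyclic loess 10 lower and 2 higher. Many of these receptors act on other cells than the ligand's source, and only transcripts within the F4/80+ cells were measured.

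**Figure D3:**
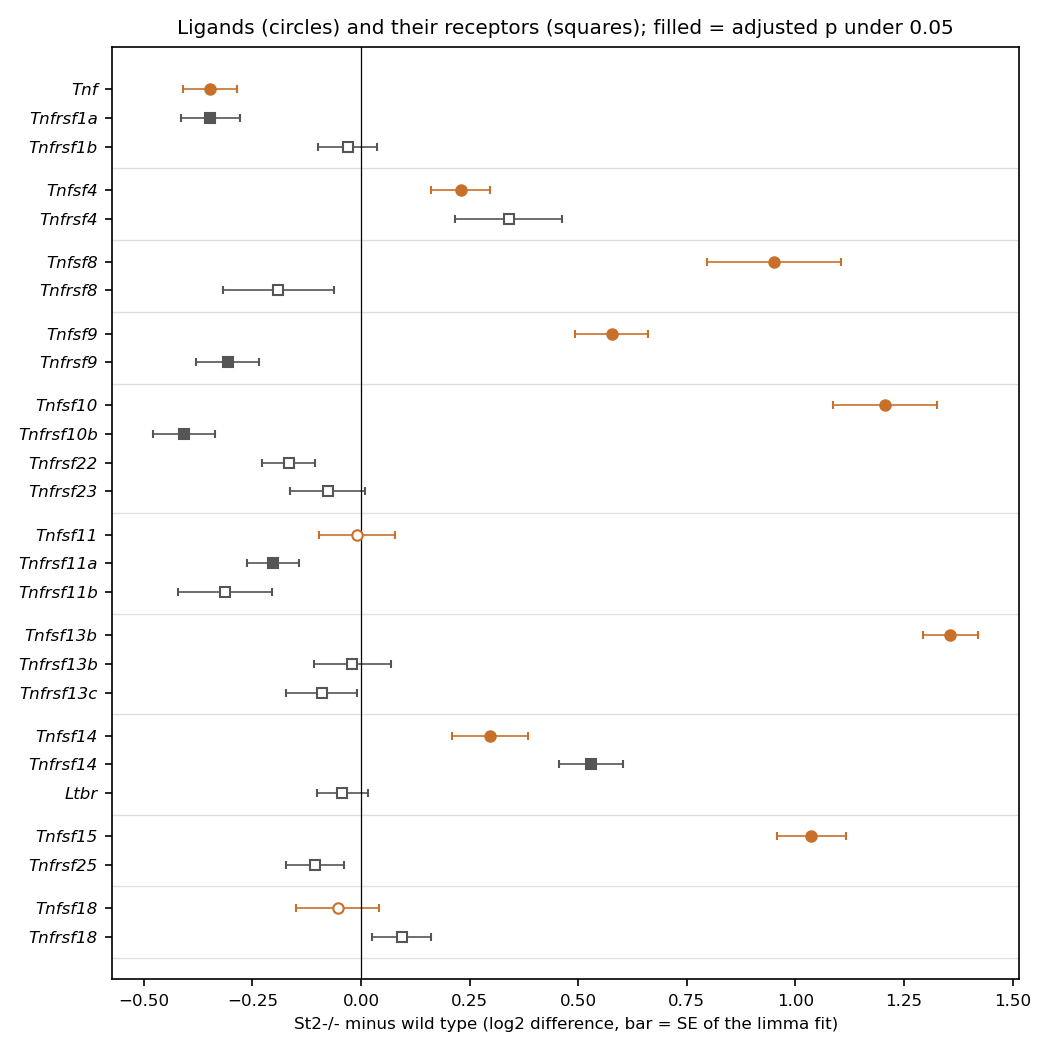
Differences (St2-/- minus wild type, log2) of each ligand gene (circles) and of genes of its receptors (squares), with bars of 1 SE from the limma fit; filled symbols had an adjusted p under 0.05. Tnf and its receptor gene Tnfrsf1a were both lower, Tnfsf9 and Tnfsf10 were higher while Tnfrsf9 and Tnfrsf10b were lower, and Tnfsf14 and Tnfrsf14 were both higher.

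For Tnf itself, the death domain receptor gene Tnfrsf1a read 9.75, 9.74 and 9.79 in wild type and 9.48, 9.31 and 9.45 in St2-/-, a fall of -0.35 ± 0.07 (SE; limma adjusted p = 0.00574). Tnfrsf1b, the receptor without a death domain, differed by -0.03 ± 0.07 (SE) and was not called (limma adjusted p = 0.804). Tnf and Tnfrsf1a were thus lower side by side, and Tnfrsf1b was not called. For LIGHT, Tnfrsf14, the gene of HVEM, read 8.60, 8.68 and 8.72 in wild type and 9.09, 9.30 and 9.20 in St2-/-. It rose by 0.53 ± 0.07 (SE; limma adjusted p = 0.000754) and was the only receptor gene called higher. The lymphotoxin beta receptor gene Ltbr differed by -0.04 ± 0.06 (SE) and was not called.

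None of the receptor genes examined for the 4 ligands that rose most was called higher in limma. Tnfrsf10b, the mouse death receptor for TRAIL, read 6.27, 6.48 and 6.40 in wild type and 5.97, 6.0 and 5.96 in St2-/-, a fall of -0.41 ± 0.07 (SE; limma adjusted p = 0.00294). The decoy receptor genes Tnfrsf22 and Tnfrsf23 differed by -0.17 ± 0.06 and -0.08 ± 0.09 (SE) and were not called. Tnfrsf22 was called lower when dim genes were left out (limma adjusted p = 0.0415) and in the plain two-sample test (adjusted p = 0.0497). Tnfrsf13b and Tnfrsf13c, genes of the BAFF receptors TACI and BAFF-R, differed by -0.02 ± 0.09 and -0.09 ± 0.08 (SE) and were not called. Nor were Tnfrsf25, the TL1A receptor (-0.11 ± 0.07), and Tnfrsf8, the gene of CD30 (-0.19 ± 0.13; SE). Tnfrsf8 was called lower without wild type replicate 1 (-0.345, limma adjusted p = 0.0405).

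Among receptors of the co-stimulatory ligands and of RANKL, Tnfrsf9, the gene of 4-1BB, fell by 0.31 on the log2 scale (limma adjusted p = 0.0143). That call was lost without St2-/- replicate 2 (limma adjusted p = 0.058) or 3 (0.0531) and with arrays centred on their median (0.056). A plain two-sample test did not call Tnfrsf9 either (adjusted p = 0.0615). Tnfrsf4, the gene of OX40, differed by 0.34 ± 0.12 (SE) and was not called (limma adjusted p = 0.0823). It was called higher without St2-/- replicate 1 (0.46, limma adjusted p = 0.0231), with arrays centred on their median (0.0248) and after cyclic loess (0.0442). Tnfrsf18, the gene of GITR, differed by 0.09 ± 0.07 (SE) and was not called. Tnfrsf11a, the gene of RANK, differed by -0.20 ± 0.06 (SE; limma adjusted p = 0.0402), a call lost without any one of the 6 arrays (limma adjusted p from 0.0754 to 0.12) and with centred arrays (-0.11, limma adjusted p = 0.238). Tnfrsf11b, the gene of the soluble RANKL inhibitor osteoprotegerin, differed by -0.31 ± 0.11 (SE) and was called lower only when St2-/- replicate 2 was left out (-0.445, limma adjusted p = 0.00628).

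The greatest falls among receptors were in genes other than those examined above as receptors of the 10 ligands. Tnfrsf21, the gene of death receptor 6, read 8.87, 8.81 and 8.86 in wild type and 8.10, 7.84 and 7.93 in St2-/-, a fall of -0.89 ± 0.08 (SE; limma adjusted p = 3.69e-05). Tnfrsf26 (-0.64), the ectodysplasin receptor gene Eda2r (-0.59) and Tnfrsf12a, the receptor of TWEAK (-0.42), fell as well, with groups that did not overlap. Fas, the death receptor of Fas ligand, fell by 0.47 on the log2 scale (limma adjusted p = 0.0148), a call lost without St2-/- replicate 2 (-0.41, limma adjusted p = 0.0607). Edar differed by -0.34, a call lost without St2-/- replicate 1 (-0.30, limma adjusted p = 0.0517). Neither Fas nor Edar was called by a plain two-sample test (adjusted p = 0.133 and 0.0737).

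Adaptors, kinases and NF-kB regulators downstream of these receptors were split. Of 40 listed genes 36 were measured, of which 9 were higher, 3 lower and 24 not called in limma (33.3% called against 20.8% of all genes, median difference 0.10), and arrays centred on their median gave 16 higher and 2 lower. All 36 passed the filter that left out the dimmest 40% of genes. With that filter 11 were higher and 3 lower, while 4507 of the 11964 genes kept were called. Tnip1, an inhibitor of NF-kB that binds ubiquitin, had means of 7.78 ± 0.04 and 8.64 ± 0.06 (SD, n = 3), and rose by 0.85 ± 0.06 (SE; limma adjusted p = 1.3e-05). Traf1, an adaptor gene that NF-kB induces, rose by 0.76, the deubiquitinase genes Otulin and Cyld by 0.52 and 0.38, and Bcl3, an atypical IkB protein, by 0.50. The necroptosis effector gene Mlkl rose by 0.40 and Birc3, an inhibitor of apoptosis, by 0.36, though Birc3 was not called by a plain two-sample test. Nfkbia, the IkB alpha gene that NF-kB induces to restrain itself, had means of 11.19 ± 0.10 and 10.68 ± 0.05 (SD, n = 3) and changed by -0.51 ± 0.07 (SE; limma adjusted p = 0.000691). Tnfaip3, the gene of the NF-kB inhibitor A20, fell by 0.31 on the log2 scale and Nfkbiz by 0.25. Nfkbiz lost its call with arrays centred on their median (limma adjusted p = 0.0855). Negative regulators of the pathway thus stood on both sides, with Tnip1, Cyld and Otulin higher and Nfkbia and Tnfaip3 lower. The NF-kB subunit genes Rela, Relb, Rel and Nfkb2 were not called. A further subunit gene, Nfkb1, was not measured, nor were Traf3, Ripk1 and Chuk.

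**Figure D4:**
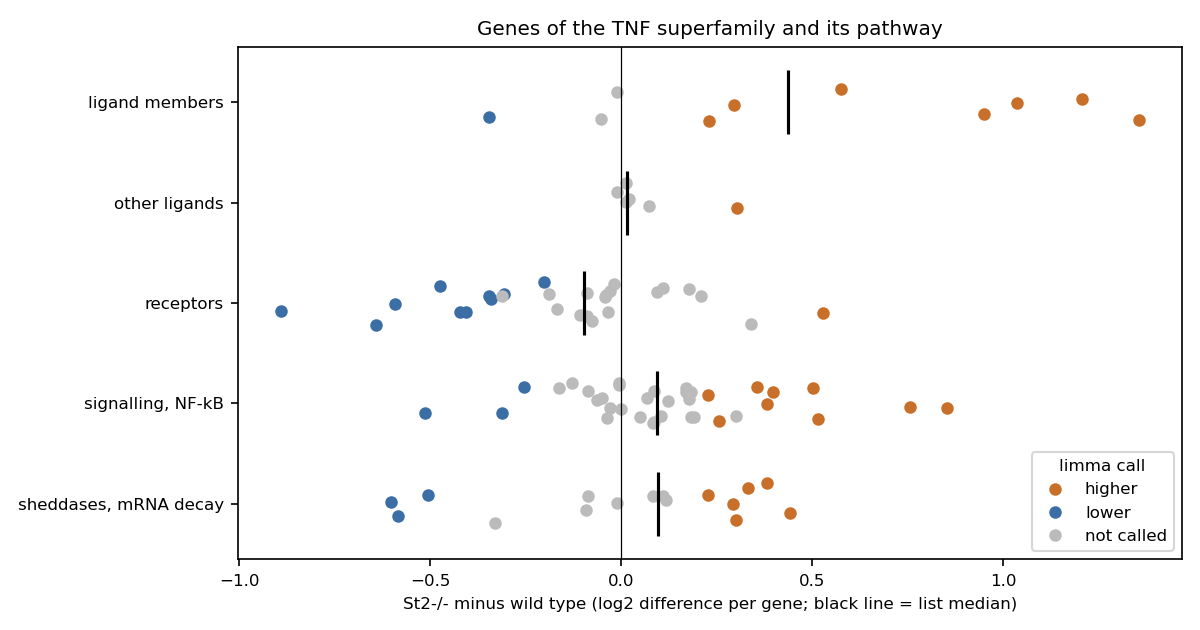
Differences (St2-/- minus wild type, log2) of each measured gene in 5 lists, coloured by limma call, with the list median as a black line. The ligand members have a median of 0.44, the receptors -0.10, and the signalling list spreads from -0.51 to 0.85. All 5 lists were chosen with earlier results of these data known, so the medians are a description.

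Genes that act on TNF family ligands after transcription were the last list. It held 16 genes, all measured, with 6 higher, 3 lower and 7 not called in limma (56.2% called against 20.8% of all genes, median difference 0.10). Adam17, the protease that releases TNF from the membrane, read 10.46, 10.45 and 10.39 in wild type and 10.71, 10.68 and 10.81 in St2-/-, a rise of 0.30 ± 0.07 (SE; limma adjusted p = 0.00965). Its trafficking partner gene Rhbdf2 rose by 0.29 and the related Rhbdf1 fell by 0.58 on the log2 scale. Adam10, another sheddase, rose by 0.44 and Furin, a protease that cleaves BAFF from the cell surface, by 0.33. Zfp36, the gene of tristetraprolin, which destabilises Tnf mRNA, read 11.09, 11.02 and 11.01 in wild type and 10.48, 10.36 and 10.47 in St2-/-, a fall of -0.60 ± 0.07 (SE; limma adjusted p = 0.000147). Its relative Zfp36l1 fell by 0.51 on the log2 scale, and Zfp36l2 rose by 0.38. Tnf and Zfp36 were both lower in all 3 St2-/- arrays.

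Markers of some other cell types differed with genotype too, and their part in the ligand differences was not tested. The called share exceeded the 20.8% of all genes for T, NK, B and dendritic cell, neutrophil, fibroblast and endothelial markers. Among these lists it was lowest for B cell markers (28.6%). Epithelial and tumour markers (14.3%) and eosinophil and mast cell markers fell below the share of all genes. Of 13 measured T cell markers 6 were higher and 1 lower, and the list mean was 5.13 to 5.25 in wild type and 5.53 to 5.54 in St2-/- arrays. The list median was 0.11, with Cd4 at 2.19, Cd3e at 0.72, Cd3d at 0.02 and Cd28 at -0.71. Of 10 NK cell markers 5 were higher (list mean 3.88 to 3.89 in wild type, 4.45 to 4.52 in St2-/-), with Klrk1 at 3.38, Nkg7 at 1.45 and Ncr1 at 0.09 and a list median of 0.24. Of 7 B cell markers 2 were higher (4.75 to 4.83 and 4.93 to 4.96), with a list median of 0.01. Cd79b stood at 0.80, Ms4a1 at 0.48, Pax5 at 0.01 and Cd79a at -0.23. Of 11 dendritic cell markers 3 were higher and 3 lower (5.79 to 5.94 and 6.34 to 6.42), with a list median of -0.03. Xcr1 (3.37), Clec9a (1.88) and Itgax (1.80) were higher, and Fscn1 (-0.58), Cd209a (-0.27) and Ccr7 (-0.26) were lower. Flt3 stood at -0.01. Neutrophil markers had 5 lower and 1 higher of 10 (5.55 to 5.57 and 4.96 to 5.01), fibroblast markers 7 lower and 1 higher of 10 (7.57 to 7.62 and 6.20 to 6.28), and endothelial markers 7 lower and 2 higher of 10 (6.12 to 6.28 and 5.72 to 5.77). Of 7 epithelial and tumour markers 1 was lower (6.30 to 6.45 and 6.20 to 6.28), and of 9 eosinophil and mast cell markers 0 were called in limma or in the plain two-sample test (1 at an unadjusted limma p under 0.05; 4.31 to 4.38 and 4.19 to 4.25). Macrophage markers had 3 higher and 2 lower of 11, a called share of 45.5% against 20.8% of all genes. Their list means were 11.53 to 11.56 and 11.51 to 11.57. Among these Aif1 (0.59), Fcgr1 (0.36) and Adgre1 (0.31) rose, and Lyz2 (-0.71) and Mertk (-0.72) fell.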

How the data were processed

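Expression was measured on Affymetrix Gene 1.0 ST arrays, and the deposited values are the authors' log2 expression values from RMA (per the submitters' processing notes). Quantile normalization in RMA equalises the arrays, which hides any change common to most genes. The log base is not stated and was taken as log2 from the range of the values. The version of RMA is not stated in those notes.

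Of 35556 probe sets, 21789 carried 1 gene symbol, and the brightest on average stood for a gene. Differences were tested with limma 3.58.1 under R 4.3.3 (two-sided, Benjamini-Hochberg over 19938 genes). Tested on simulated data of 19938 genes in 3 against 3 arrays, limma recovered 13.9% of genes changed by 0.25 and 94.5% by 0.5 on the log2 scale. Each simulated draw changed only 200 genes, against 4140 called in the data. The adjusted p depends on that share, so these rates need not hold for the data. The alternatives were other scalings, variance priors, array weights, averaged probe sets, a filter on dim genes, a replicate block, a plain two-sample test and each array left out. Replicates 1, 2 and 3 of the groups deviated with correlations of 0.01, -0.01 and -0.05, so the numbers do not pair them.

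Members and lists were chosen with earlier results of these data known. Named genes are the members, their receptors, up to 6 called genes per list and direction with the smallest p, their neighbours, and the 3 genes most like Tnfsf13b and Tnf. Others were named after their values were seen. Promoter sequences are RefSeq's (GRCm38.p6).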

Additional observations from a re-analysis of the deposited data

How the results depend on the processing

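The direction of the 8 called ligand genes held under all alternatives that tested them, and so did the calls of Tnf, Tnfsf9, Tnfsf10, Tnfsf13b and Tnfsf15. The plain two-sample test called 2703 genes in all and 4 ligand genes higher. Leaving out 1 array gave 2887 to 3852 genes in all, 5 to 6 ligand genes higher, 1 to 2 receptor genes higher and 0 to 1 other ligands higher. The replicate block called 3571 genes in all, with 5 ligand genes, 2 receptor genes and 0 other ligands higher: it ended the calls of Tnfsf4, Tnfsf14, Lta, Tnfrsf11a, Rbck1 and Elavl1 and called Tnfrsf4 (limma adjusted p = 0.0171). Other ligands called higher were also 0 in the plain test and when dim genes, Lta among them, were left out. Receptor genes called higher were 4 with centred arrays and 2 after cyclic loess, and signalling genes called higher were 16 with centred arrays. Of the 41 called genes of the ligand, receptor, signalling and sheddase lists, 28 were called under all alternatives that tested them. Named genes that were not called turned sign with centred arrays: Tnfsf11 (0.08, and 0.02 with array weights), Tnfsf18 (0.04), Tnfrsf1b (0.06), Tnfrsf23 (0.013), Tnfrsf13b (0.07), Ltbr (0.047) and Cd70 (0.08, and 0.043 after cyclic loess). With 1 array left out, the sign also turned for some genes that were not called, where the differences were -0.075 to 0.07 for Tnfsf11, -0.13 to 0.02 for Tnfsf18, -0.08 to 0.01 for Tnfrsf1b, -0.135 to 0.02 for Tnfrsf23, -0.075 to 0.065 for Tnfrsf13b, -0.025 to 0.065 for Ltb and -0.045 to 0.01 for Cd70. The cause was not tested. The table gives no signal over background, so whether dim genes such as Tnfsf4 and Tnfsf18 stood above it was not tested.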

Other observations

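Besides the shared probe set of Tnfsf12 and Tnfsf13 given above, 3 genes of the lists had further probe sets, which entered none of the counts. Cflar, an inhibitor of caspase 8, differed by 0.02 ± 0.05 and 0.12 ± 0.07 (SE, n = 3 a group) in its other probe sets, and by -0.01 ± 0.06 in the one used. The other probe set of Birc2, an inhibitor of apoptosis, differed by -0.05 ± 0.10, against 0.30 ± 0.11 in the one used. The other probe set of Rc3h1, which promotes decay of mRNA, differed by -0.15 ± 0.10, against -0.09 ± 0.06.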
